A study of Mus musculus with 6 samples.

Results

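The nuclear-encoded subunits of the respiratory chain and the ATP synthase were followed in RNA sequencing libraries of mouse lymph node. Genes were taken by symbol, as those whose names begin like complex I subunits (Ndufa, Ndufb, Ndufc, Ndufs or Ndufv with a number), complex III subunits (Uqcr), complex IV subunits (Cox, a number from 4 to 8 and the letter a, b or c) or ATP synthase subunits (Atp5), together with Sdha, Sdhb, Sdhc and Sdhd of complex II. In all 103 symbols matched, of which 15 pseudogene rows with -ps in the symbol and 10 genes with a mean under 1 CPM, that is 1 read in 1000000 reads assigned to genes, were left out. The remaining 78 genes are described here, out of 50559 in the table and 14873 that passed the same filter. They comprise 37 genes of complex I, 4 of complex II, 8 of complex III, 12 of complex IV and 17 of the ATP synthase. The study compared 3 samples labelled Naringin, from mice that received this citrus flavonoid daily in the food at 200 mg/kg, with 3 samples labelled Control, and took inguinal lymph nodes of the groin. The sources used here do not give the strain, age or sex of the mice, the length of feeding or what the Control mice ate. Nor do the labels say that each sample is another animal, so p-values measure only the spread between these samples, which may be technical. Read from whole tissue, a lower transcript level can come from fewer cells of a type or from less RNA per cell, and these cannot be told apart.

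The respiratory chain of the mitochondrial inner membrane passes electrons from NADH (through complex I) and succinate (through complex II) to ubiquinone, then through complex III and cytochrome c to oxygen at complex IV. Complexes I, III and IV pump protons, and the ATP synthase uses the returning protons to make ATP. All complexes but complex II combine subunits of the nuclear genome with subunits of the mitochondrial genome. Resting lymphocytes draw much of their ATP from this chain, and activated lymphocytes enlarge both glycolysis and mitochondrial mass.

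Among the Control samples, the library Control 3 stood apart before any comparison between groups. Library totals ran from 13074180 to 14976422 reads on genes, and Control 3 held 14963386, so its depth lay within the range of the others. It was the highest of the 6 libraries for 73 of the 78 subunit genes (93.6%), against 24% of all genes tested. It was the lowest for Ndufs1 and Sdha, which is 2.56% of the subunit genes against 36.6% of all genes. Folds of the named subunit genes are therefore given with and without it. Its chi-square per degree of freedom against Control 2 was 61.6, the largest of any pair, and the smallest was 7.68 between Control 1 and Control 2. The tissue was lymphoid by its markers: 9 T cell genes averaged a sum of 1975 ± 265 CPM with naringin and 2284 ± 104 CPM in Control, and 7 B cell genes 3410 ± 422 CPM with naringin and 3050 ± 160 CPM in Control (SD, n = 3 each). Markers of muscle and brown fat were near 0. The 8 skeletal muscle genes summed to 4.48 to 7.95 CPM, with Myh4 and Mb at 0 reads, and the 4 brown adipocyte genes to at most 0.267 CPM, with Ucp1 and Elovl3 at 0 reads. The 11 adipocyte genes summed to 175, 156 and 128 CPM in Naringin 1, 2 and 3, against 215, 155 and 184 CPM in Control 1, 2 and 3. Macrophage markers varied widely, with 9 genes at 3010, 2013 and 1089 CPM in Naringin 1, 2 and 3, against 1395, 1561 and 2909 CPM in Control 1, 2 and 3. The 5 erythroid genes summed to 55.2, 58.8 and 56.0 CPM in Naringin 1, 2 and 3, against 35.8, 32.1 and 49.6 CPM in Control 1, 2 and 3, so that all Naringin sums lay above all Control sums. All 5 had a log2 fold above 0, against 56.7% of all genes. An unadjusted limma p under 0.05 was found in 3, against 1.43% of all genes, but 0 were called. The 9 T cell genes all had a fold below 0, against 43.3% of all genes, and 1 had an unadjusted limma p under 0.05. The 7 B cell genes all had a fold above 0, with 0 under that p. Of the tested macrophage genes 2 were above 0 and 6 below, and of the tested adipocyte genes 1 and 8. The part of these cell types in the subunit values was not tested.

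Many subunit genes share promoter elements, of which those for NRF1, ETS family factors such as GABPA, and YY1 are the best known. RefSeq promoters (build GRCm38.p6, from 250 bases before to 50 after the start) were found for 66 of the 78 genes. All motifs were searched on both strands. A gene with several promoters was counted once, as holding a motif if any of them did. The NRF1 motif is spelled by the 10 capitals in the Cox6a1 promoter below. It was held by 5 of the 66 genes (7.58%), against 1.07% of all 27025 genes with a RefSeq promoter and 2.12% of the 11298 tested ones. The YY1 motif AAGATGGC was held by 10 (15.2%), against 3.19% of all and 4.90% of tested genes. Of these 10, 7 belong to complex I, which itself makes up 37 of the 78 genes. The ETS motif ACTTCCGG was held by 5 (7.58%), against 4.31% of all and 8.36% of tested genes. The share was above that of tested genes for the NRF1 and YY1 letters and below it for the ETS letters, which is a description with no test. None of the motifs contains another. The 250 bases before the start of 3 genes from different complexes are shown because these genes are among those described below and hold a motif, printed in capitals, 5′ to 3′ on the strand of the gene. Atp5h lies on the minus strand with this stretch at chr11:115419920-115420169, Uqcrh on the minus strand at chr4:116075071-116075320, and Cox6a1 on the minus strand at chr5:115348959-115349208.
Atp5h: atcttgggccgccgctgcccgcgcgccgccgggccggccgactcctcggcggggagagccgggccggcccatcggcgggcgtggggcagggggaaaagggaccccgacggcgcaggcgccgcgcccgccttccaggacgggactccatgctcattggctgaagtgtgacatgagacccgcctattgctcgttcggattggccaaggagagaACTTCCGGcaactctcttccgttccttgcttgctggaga
Uqcrh: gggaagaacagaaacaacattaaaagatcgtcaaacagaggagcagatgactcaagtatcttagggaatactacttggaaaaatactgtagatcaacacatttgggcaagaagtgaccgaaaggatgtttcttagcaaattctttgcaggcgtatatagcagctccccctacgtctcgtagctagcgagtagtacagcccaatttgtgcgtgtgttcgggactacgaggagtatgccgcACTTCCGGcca
Cox6a1: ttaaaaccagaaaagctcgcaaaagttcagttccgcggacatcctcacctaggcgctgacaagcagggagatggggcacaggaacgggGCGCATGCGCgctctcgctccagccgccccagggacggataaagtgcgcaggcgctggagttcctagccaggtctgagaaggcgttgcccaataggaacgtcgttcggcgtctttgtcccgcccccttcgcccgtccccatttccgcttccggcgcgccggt
The capitals are the ETS motif in Atp5h, beginning 39 bases before the start, the ETS motif in Uqcrh, beginning 11 bases before it, and the NRF1 motif in Cox6a1, beginning 162 bases before it. The level in Control 3 over the mean of the other 5 libraries had a median of 1.31 over the 20 genes with any of the motifs and 1.32 over the other 46. By motif, this median was 1.28 in genes with the NRF1 letters against 1.32 in those without, 1.39 against 1.31 for ETS, and 1.29 against 1.32 for YY1.

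With naringin, no subunit gene changed by the test. In limma on log2(CPM + 1), 0 of the 78 genes were called at an adjusted p under 0.05 in either direction, against 0% of all 14873 genes in each direction, and the adjusted p was 1 for every subunit gene. At an unadjusted p under 0.05 there were 0 subunit genes and 213 of all genes (1.43%). On the recovered reads, edgeR called 0 genes and DESeq2 called 3, of which 0 were subunit genes. In no subunit gene did the 3 Naringin values lie all above the 3 Control values, which was so for 3.36% of all genes, or all below them, which was so for 2.29%. The smallest unadjusted limma p was 0.157, for Sdhd. The 95% intervals of the log2 folds, Naringin minus Control, together spanned -0.83 to 0.56, with standard errors (SE) between 0.12 and 0.25, so changes within these intervals remain possible.

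Summed over the 78 genes, the subunits held 7595, 7863 and 7783 CPM in Naringin 1, 2 and 3, against 7195, 7182 and 9526 CPM in Control 1, 2 and 3. The Naringin libraries lay close together, above Control 1 and 2 and below Control 3. The means were 7747 ± 138 CPM with naringin and 7967 ± 1350 CPM in Control (SD, n = 3 each), a difference of -2.77%, which without Control 3 was 7.77%. The log2 fold was above 0 in 22 of 78 genes (28.2%), against 56.7% of all genes, and below 0 in 56 (71.8%), against 43.3%. The median log2 fold of the subunits was -0.05, against 0.03 over all genes tested, and it turned to 0.10, against 0.0016, without Control 3.

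**Figure D1:**
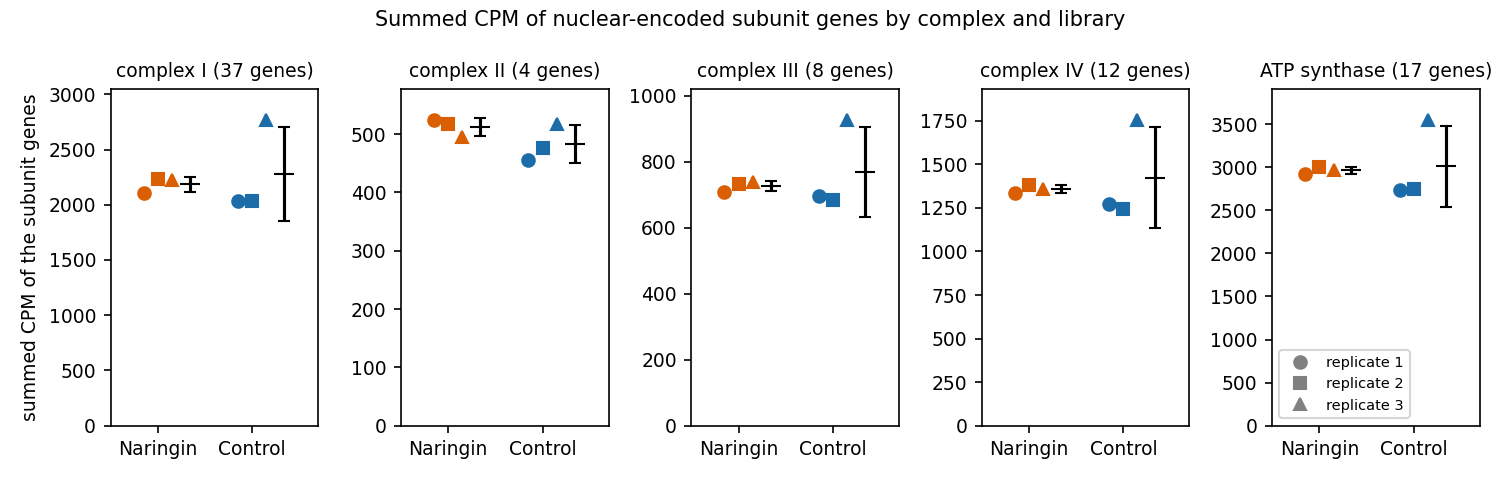
Summed CPM of the subunit genes of each complex in each library, with Naringin left of Control; symbols are replicates and the bars beside them are mean and SD of 3 libraries. In every complex but complex II, Control 3 lies above all 3 Naringin libraries, and Control 1 and 2 lie below them.

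Complex I, the NADH dehydrogenase, had 37 genes. Their sum was 2109, 2230 and 2220 CPM in Naringin 1, 2 and 3, against 2034, 2030 and 2771 CPM in Control 1, 2 and 3. The mean was 2187 ± 67.5 CPM with naringin and 2278 ± 427 CPM in Control (SD, n = 3 each), with the Naringin libraries inside the Control range. The log2 fold was above 0 in 11 genes and below 0 in 26, with a median of -0.06 that was 0.09 without Control 3. The 7 core genes, whose products carry the flavin, the iron-sulfur clusters and the quinone site, had folds between -0.06 and 0.15.
Ndufs1, the largest iron-sulfur subunit of the core, stood at 70.0, 74.0 and 64.6 CPM in Naringin 1, 2 and 3, against 64.2, 66.1 and 57.1 CPM in Control 1, 2 and 3. It was the only complex I gene whose lowest library was Control 3, and Naringin 3 lay within the Control range. Its log2 fold was 0.15 ± 0.12 (SE), and 0.09 without Control 3.
Among the accessory subunits, which surround the core, Ndufa8 stood at 57.0, 54.4 and 59.4 CPM in Naringin 1, 2 and 3, against 45.4, 51.4 and 65.6 CPM in Control 1, 2 and 3. Its log2 fold was 0.09 ± 0.15 (SE), with Naringin again above Control 1 and 2 and below Control 3, and it was 0.23 without Control 3. Ndufa5, another accessory subunit, had the lowest fold of complex I. It stood at 28.9, 36.7 and 33.8 CPM in Naringin 1, 2 and 3, against 36.9, 32.3 and 47.5 CPM in Control 1, 2 and 3, a log2 fold of -0.21 ± 0.17 (SE). The groups overlapped, and without Control 3 the fold was -0.06. Ndufa3 stood at 70.4, 73.0 and 77.2 CPM in Naringin 1, 2 and 3, against 71.0, 75.3 and 104 CPM in Control 1, 2 and 3. Its log2 fold of -0.16 became 0.0074 without Control 3. Ndufb11, an accessory subunit of the membrane arm coded on the X chromosome, stood at 107, 108 and 115 CPM in Naringin 1, 2 and 3, against 99.7, 94.8 and 144 CPM in Control 1, 2 and 3. Ndufa4, named as a complex I subunit but since found in complex IV, stood at 89.6, 96.7 and 94.8 CPM in Naringin 1, 2 and 3, against 88.3, 81.7 and 119 CPM in Control 1, 2 and 3. Both had all Naringin values above Control 1 and 2 and below Control 3, and log2 folds of -0.01 (Ndufb11) and -0.02 (Ndufa4), which were 0.18 and 0.14 without Control 3. The remaining complex I genes had log2 folds between -0.16 and 0.09.

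Complex II, the succinate dehydrogenase that also belongs to the citric acid cycle, was the exception among the complexes in its direction. Its 4 genes summed to 525, 518 and 495 CPM in Naringin 1, 2 and 3, against 455, 477 and 518 CPM in Control 1, 2 and 3. The mean was 513 ± 15.8 CPM with naringin and 483 ± 31.9 CPM in Control (SD, n = 3 each), 6.07% higher, though Control 3 overlapped the Naringin range. The median log2 fold was 0.09, and it stayed above 0 under every scaling and with every library left out, from 0.05 with upper-quartile scaling to 0.19 without Control 3.
Sdhd, a membrane anchor of the complex, stood at 99.6, 94.8 and 85.2 CPM in Naringin 1, 2 and 3, against 74.9, 77.9 and 90.3 CPM in Control 1, 2 and 3. Only Control 3 reached into the Naringin range. The log2 fold was 0.20 ± 0.13 (SE; limma adjusted p = 1), with a 95% interval from -0.10 to 0.50, and it was 0.28 without Control 3. Sdhc, the other anchor, stood at 77.7, 70.0 and 72.7 CPM in Naringin 1, 2 and 3, against 65.0, 63.2 and 78.2 CPM in Control 1, 2 and 3, a log2 fold of 0.10 that was 0.19 without Control 3. Sdha, the flavoprotein that oxidises succinate, stood at 254, 255 and 242 CPM in Naringin 1, 2 and 3, against 233, 252 and 224 CPM in Control 1, 2 and 3. Here Control 3 was the lowest library, and the log2 fold was 0.09 ± 0.12 (SE), and 0.05 without Control 3. Sdhb, the iron-sulfur subunit, stood at 93.5, 98.6 and 94.6 CPM in Naringin 1, 2 and 3, against 82.5, 84.5 and 125 CPM in Control 1, 2 and 3. Its group means were nearly equal, at 95.5 ± 2.65 CPM with naringin and 97.4 ± 24.1 CPM in Control (SD, n = 3 each), and its log2 fold was 0.19 without Control 3. The subunits of this complex therefore did not follow Control 3 alike: it was the highest library for Sdhb and Sdhc, the lowest for Sdha and below Naringin 1 and 2 for Sdhd.

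Complex III, which passes electrons from ubiquinol to cytochrome c, summed over 8 genes to 709, 733 and 738 CPM in Naringin 1, 2 and 3, against 697, 684 and 927 CPM in Control 1, 2 and 3. The mean was 727 ± 15.8 CPM with naringin and 769 ± 137 CPM in Control (SD, n = 3 each). The log2 fold was above 0 in 2 genes and below 0 in 6, with a median of -0.05 that was 0.05 without Control 3.
Uqcrc1, a core protein of the matrix side, stood at 128, 125 and 134 CPM in Naringin 1, 2 and 3, against 124, 118 and 161 CPM in Control 1, 2 and 3. Uqcrc2, its partner, stood at 109, 117 and 102 CPM in Naringin 1, 2 and 3, against 98.2, 117 and 116 CPM in Control 1, 2 and 3. Control 3 was 1.28 times the mean of the other libraries for Uqcrc1 and 1.07 times for Uqcrc2. The log2 folds were -0.05 and -0.01, and 0.09 and 0.03 without Control 3. Uqcrfs1, the Rieske iron-sulfur protein, stood at 81.7, 87.6 and 76.8 CPM in Naringin 1, 2 and 3, against 77.4, 79.1 and 89.4 CPM in Control 1, 2 and 3. Its log2 fold of 0.0025 had a 95% interval from -0.28 to 0.28, and was 0.07 without Control 3. Uqcrb, which lies at the ubiquinone site, stood at 57.2, 61.2 and 58.1 CPM in Naringin 1, 2 and 3, against 59.4, 56.1 and 67.1 CPM in Control 1, 2 and 3. The groups overlapped, with a log2 fold of -0.05 that was 0.03 without Control 3. Uqcrh, the hinge protein near cytochrome c whose promoter is printed above, stood at 155, 162 and 185 CPM in Naringin 1, 2 and 3, against 169, 157 and 232 CPM in Control 1, 2 and 3. Naringin 1 was its lowest library, and the log2 fold was -0.14 ± 0.17 (SE), and 0.03 without Control 3.
Of the small subunits, Uqcr10, Uqcrq and Uqcr11 had the largest ratios of Control 3 to the other libraries within the complex, while Uqcrb stood at 1.15 times. Uqcr10 stood at 53.3, 52.5 and 55.1 CPM in Naringin 1, 2 and 3, against 53.4, 51.1 and 81.3 CPM in Control 1, 2 and 3. Uqcrq stood at 70.7, 76.6 and 78.3 CPM in Naringin 1, 2 and 3, against 70.8, 68.1 and 110 CPM in Control 1, 2 and 3. In both, Control 3 exceeded every other library, by 1.53 times (Uqcr10) and 1.51 times (Uqcrq) their mean, and the log2 folds of -0.17 and -0.11 turned to 0.04 and 0.11 without Control 3. Uqcr11 stood at 53.7, 51.3 and 50.4 CPM in Naringin 1, 2 and 3, against 44.7, 37.8 and 70.3 CPM in Control 1, 2 and 3. Its 95% interval, from -0.42 to 0.56, reached highest of all subunit genes, and its log2 fold of 0.07 was 0.33 without Control 3 (limma adjusted p = 0.415).

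Complex IV, the cytochrome c oxidase, summed over 12 nuclear genes to 1335, 1381 and 1357 CPM in Naringin 1, 2 and 3, against 1273, 1243 and 1757 CPM in Control 1, 2 and 3. The mean was 1358 ± 23.1 CPM with naringin and 1424 ± 288 CPM in Control (SD, n = 3 each). The log2 fold was above 0 in Cox5a and Cox7c and below 0 in the other 10 genes, with a median of -0.06 that was 0.11 without Control 3.
Cox5a, a matrix-side subunit, stood at 97.2, 94.3 and 95 CPM in Naringin 1, 2 and 3, against 88.2, 78.5 and 118 CPM in Control 1, 2 and 3. Cox7c stood at 122, 124 and 122 CPM in Naringin 1, 2 and 3, against 108, 121 and 133 CPM in Control 1, 2 and 3. In Cox5a the Naringin values lay above Control 1 and 2 and below Control 3, as they did in Cox7c. Both had a log2 fold of 0.03, which without Control 3 was 0.20 (Cox5a) and 0.10 (Cox7c). Cox7a2l, which joins complex III to complex IV in supercomplexes, stood at 304, 330 and 310 CPM in Naringin 1, 2 and 3, against 296, 287 and 417 CPM in Control 1, 2 and 3. Cox8a, the ubiquitous form of its subunit, stood at 187, 182 and 187 CPM in Naringin 1, 2 and 3, against 169, 167 and 248 CPM in Control 1, 2 and 3. The Naringin values again lay between, with log2 folds of -0.06 (Cox7a2l) and -0.05 (Cox8a) that turned to 0.11 and 0.14 without Control 3.
Several complex IV subunits exist as tissue isoforms. Of the Cox6a pair, the ubiquitous Cox6a1, whose promoter is printed above, stood at 153, 161 and 173 CPM in Naringin 1, 2 and 3, against 161, 147 and 201 CPM in Control 1, 2 and 3. The heart and muscle form Cox6a2 stood at 2.68, 2.20 and 3.15 CPM in Naringin 1, 2 and 3, against 4.90, 2.67 and 3.07 CPM in Control 1, 2 and 3. Cox6a2 had the lowest fold of all subunit genes, -0.28 ± 0.24 (SE), and its highest library was Control 1, not Control 3. Of the Cox6b pair, the ubiquitous Cox6b1 stood at 114, 118 and 120 CPM in Naringin 1, 2 and 3, against 115, 108 and 156 CPM in Control 1, 2 and 3. The testis form Cox6b2 stood at 2.08, 2.74 and 2.31 CPM in Naringin 1, 2 and 3, against 2.22, 2.31 and 4.34 CPM in Control 1, 2 and 3. Both were highest in Control 3, Cox6b2 by 1.86 times the mean of the other 5 libraries, the largest such ratio among the subunits. The log2 folds were -0.06 (Cox6a1), -0.09 (Cox6b1) and -0.19 (Cox6b2), and 0.07, 0.07 and 0.04 without Control 3. Cox7a2, the form of Cox7a outside muscle, stood at 43.8, 44.1 and 39.2 CPM in Naringin 1, 2 and 3, against 45.7, 40.2 and 67.6 CPM in Control 1, 2 and 3. Its log2 fold was -0.23 ± 0.19 (SE), and -0.02 without Control 3. The fold of Cox6a2 was -0.35 without Control 3 and -0.08 without Control 1.

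The ATP synthase summed over 17 genes to 2917, 3000 and 2972 CPM in Naringin 1, 2 and 3, against 2735, 2747 and 3553 CPM in Control 1, 2 and 3. The mean was 2963 ± 42.0 CPM with naringin and 3012 ± 469 CPM in Control (SD, n = 3 each). All 17 genes had Control 3 as their highest library. The log2 fold was above 0 in 4 genes and below 0 in 13, between -0.11 and 0.06, with a median of -0.03 that was 0.12 without Control 3.
Atp5b, the catalytic beta subunit, stood at 684, 664 and 640 CPM in Naringin 1, 2 and 3, against 578, 645 and 725 CPM in Control 1, 2 and 3. Atp5a1, the alpha subunit beside it, stood at 534, 562 and 554 CPM in Naringin 1, 2 and 3, against 522, 518 and 587 CPM in Control 1, 2 and 3. The log2 folds were 0.04 (Atp5b) and 0.02 (Atp5a1), and 0.12 and 0.08 without Control 3; Control 3 was only 1.09 times the mean of the other libraries for Atp5a1. Atp5c1, the gamma subunit that turns within them, stood at 182, 186 and 183 CPM in Naringin 1, 2 and 3, against 164, 171 and 232 CPM in Control 1, 2 and 3. The Naringin libraries differed by a few CPM while the Control libraries spread around them, and the log2 fold of -0.02 was 0.13 without Control 3.
Of the membrane and stalk subunits, Atp5g3, a gene for the c ring, stood at 146, 141 and 152 CPM in Naringin 1, 2 and 3, against 139, 120 and 168 CPM in Control 1, 2 and 3, the highest log2 fold of this complex at 0.06 ± 0.15 (SE), and 0.18 without Control 3. Atp5h, the stalk subunit d whose promoter is printed above, stood at 155, 166 and 177 CPM in Naringin 1, 2 and 3, against 164, 159 and 215 CPM in Control 1, 2 and 3. Atp5k, the subunit e of the membrane part, stood at 43.6, 44.4 and 41.4 CPM in Naringin 1, 2 and 3, against 46.8, 40.1 and 54.4 CPM in Control 1, 2 and 3. Their log2 folds were -0.10 (Atp5h) and -0.11 (Atp5k), and 0.04 and -0.0078 without Control 3. In both the groups overlapped.

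Per length, as mean CPM per kilobase of annotated exon over all 6 libraries, the median gene stood at 37.4 in complex I, 51.0 in complex II, 64.2 in complex III, 68.2 in complex IV and 66.2 in the ATP synthase. On this scale Cox8a was the highest at 307 and Cox6b2 the lowest at 2.41. The length is the sum over all annotated exons of a gene, so genes with long rare isoforms are understated. Below the CPM minimum lay isoforms of other tissues. Cox8b and Cox7a1, the muscle forms, had 4 and 10 reads over the 3 Naringin libraries, against 6 and 15 over the 3 Control libraries. The testis genes Cox8c and Cox7b2 had 0 reads in all, and Cox6c2 had 6 with naringin and 6 in Control. Ndufa4l2, induced by low oxygen in other cells, was the nearest to the minimum, with a mean of 0.936 CPM from 40 reads with naringin and 41 in Control. Just above the minimum were Cox6b2 at a mean of 2.67 CPM and Cox6a2 at 3.11 CPM. Copies of subunit genes with few reads were Ndufb4b (4 reads with naringin, 7 in Control), Ndufb4c (5 and 8), Ndufs6b (3 and 1) and Ndufa11b (0 and 0). Cox4i1, the main isoform of another nuclear subunit, lies outside the symbol rule and averaged 273 ± 12.5 CPM with naringin and 290 ± 76.2 CPM in Control (SD, n = 3 each). Its hypoxia-linked partner Cox4i2 averaged 7.40 ± 2.16 CPM with naringin and 8.12 ± 3.44 CPM in Control (SD, n = 3 each). Subunit genes with processed pseudogenes may share reads with them, and the sources used here do not say how such reads were counted, so their levels are uncertain to that extent.

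The direction of most folds changed with Control 3. The median subunit gene in Control 3 was 1.31 times the mean of the other 5 libraries, from 0.842 times in Ndufs1 to 1.86 times in Cox6b2. By complex the median ratio was 1.31 in complex I, 1.08 in complex II, 1.34 in complex III, 1.36 in complex IV and 1.31 in the ATP synthase. The highest library was another one in only 5 genes: Naringin 2 for Ndufs1, Sdha and Uqcrc2, Naringin 1 for Sdhd and Control 1 for Cox6a2. The lowest library was a Control library in 58 genes, namely Control 2 in 35, Control 1 in 21 and Control 3 in 2. Over all genes this share was counted only for Control 3, at 36.6%, so the other counts stand without a background. All 3 Naringin values lay within the range of the Control values in 54 genes (69.2%), against 37.7% of all genes tested. They lay above both Control 1 and Control 2 in 34 genes (43.6%), against 11.2% of all genes, and below both in 0 genes, against 16.6%. In 33 of the 34 they also lay below Control 3, a position that 5.24% of all genes shared. The exception was Sdhd.

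**Figure D2:**
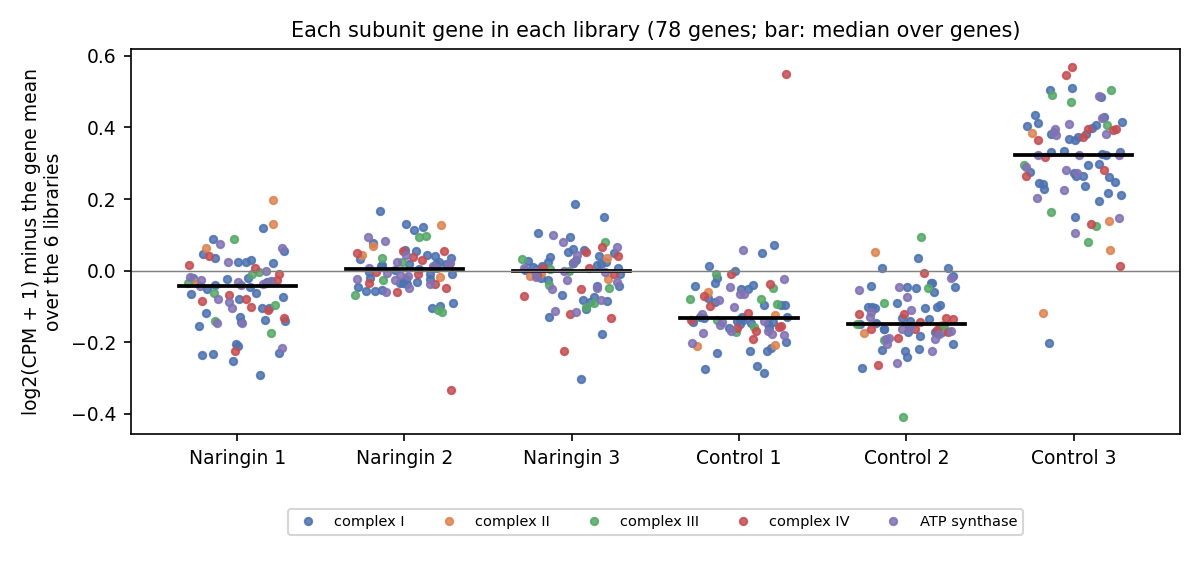
Each subunit gene in each library, as log2(CPM + 1) minus the mean of that gene over the 6 libraries; colours mark the complex and bars the median over the 78 genes. The Naringin libraries centre near 0, Control 1 and 2 at -0.13 and -0.15, and Control 3 at 0.32, with Ndufs1 and Sdha below 0 in Control 3.

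Without Control 3, the log2 fold was above 0 in 70 of 78 subunit genes (89.7%), against 50.3% of all genes. The 8 genes below 0 were Ndufa5, Ndufb4, Ndufb7, Ndufc1, Ndufc2, Cox6a2, Cox7a2 and Atp5k. Even so, limma called 0 subunit genes, against 1 gene in all (0.00672%). At an unadjusted p under 0.05, 6 subunit genes were higher with naringin (7.69%), against 2.68% of all genes, and 0 were lower, against 6.68%. These 6 were Ndufa8 (log2 fold 0.23), Ndufa13 (0.20), Sdhb (0.19), Sdhd (0.28), Uqcr11 (0.33) and Cox5a (0.20), with limma adjusted p from 0.415 to 0.527.

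**Figure D3:**
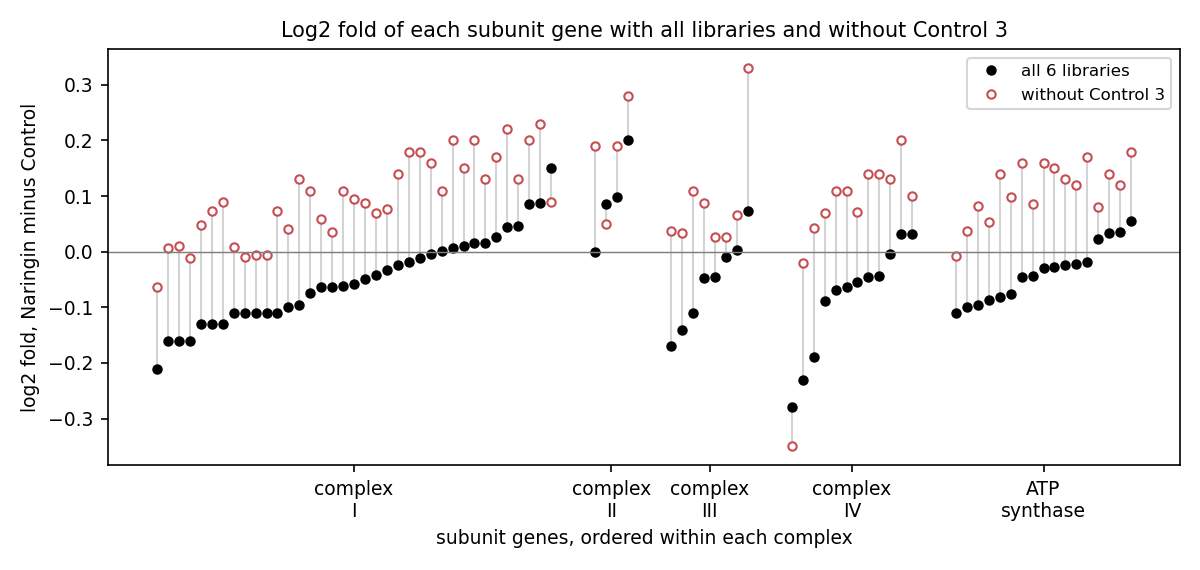
Log2 fold (Naringin minus Control, on log2(CPM + 1)) of each subunit gene with all 6 libraries (filled) and without Control 3 (open), ordered by fold within each complex. Leaving out Control 3 moves the folds of all genes up except those of Cox6a2, Ndufs1 and Sdha.

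Annotated exon length moved with the excess of Control 3 over all genes. Across 14144 genes with an annotated length, the log2 difference of Control 3 from the other libraries was lower for genes with more exon sequence (Pearson r = -0.40, Spearman rho = -0.47 with log2 exon length), and across the 78 subunit genes r was -0.23 and rho -0.15; genes of the same libraries are not independent replicates. The subunit genes are short, with a median exon length of 1631 bases against 4237 bases over all genes. Within classes of this exon length, the subunit median in Control 3 was above the median of all genes. The length sums all annotated exons, so a gene with short transcripts can fall into a long class. The part of transcript length in the position of Control 3 was not tested. The median log2 difference was 0.37 in the 18 subunit genes under 1000 bases, against 0.14 in all genes of that length, and 0.42 in the 30 genes of 1000 to 2000 bases, against 0.27. It was 0.34 in the 20 genes of 2000 to 4000 bases, against 0.10, and 0.35 in the 10 genes over 4000 bases, against -0.22. With the fold corrected for length and Control 3 left out, the median log2 fold of the subunits was 0.07, against 0.007 over all genes. Of the 78 subunit genes, 59 were above 0, and the share of all genes above 0 was not counted for that fit. In that fit 2 of the 78 subunit genes, in place of 6, were higher at an unadjusted p under 0.05. Of all 14873 genes 373 were, which is about the same share.

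Subunits coded by the mitochondrial genome showed, as a sum, the opposite position of Control 3. It was the lowest library for 8 of the 10 tested genes, against 36.6% of all genes, but not for COX2 and COX3. The 13 genes summed to 18565, 18156 and 18516 CPM in Naringin 1, 2 and 3, against 19362, 19302 and 13488 CPM in Control 1, 2 and 3. Control 3 was 28.2% under the mean of the other 5 libraries for these genes and 26.6% over it for the nuclear-encoded subunits. The ratio of nuclear to mitochondrial subunit reads was 0.409, 0.433 and 0.420 in Naringin 1, 2 and 3, against 0.372, 0.372 and 0.706 in Control 1, 2 and 3. Naringin libraries therefore lay above Control 1 and 2 and below Control 3 in this ratio, with means of 0.421 ± 0.012 with naringin and 0.483 ± 0.193 in Control (SD, n = 3 each). COX1, the catalytic subunit of complex IV, stood at 8282, 8119 and 7935 CPM in Naringin 1, 2 and 3, against 8281, 8258 and 6308 CPM in Control 1, 2 and 3. CYTB, the cytochrome b of complex III, stood at 3046, 2853 and 3044 CPM in Naringin 1, 2 and 3, against 3098, 3124 and 2250 CPM in Control 1, 2 and 3. ND5, a proton-pumping subunit of complex I, stood at 1544, 1535 and 1359 CPM in Naringin 1, 2 and 3, against 1700, 1717 and 680 CPM in Control 1, 2 and 3. In all of these Control 3 was the lowest library. In ND5 all 3 Naringin values also lay below Control 1 and 2. ND4 and ND6, both of complex I, had log2 folds of 0.11 and 0.13. Of the 10 mitochondrially encoded genes that passed the filter, 10 had a log2 fold above 0, against 56.7% of all genes, with a median of 0.12. Without Control 3, 2 of the 10 were above 0, against 50.3% of all genes, with a median of -0.03. With all libraries, limma called 0 of them. ATP6, ATP8, COX2, COX3, ND3 and ND4L were listed at no more than 11.4 CPM and are uncertain, since nuclear copies of mitochondrial DNA share their sequence. ND6 lies on the other strand, and the sources used here do not say whether counting used the strand.

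**Figure D4:**
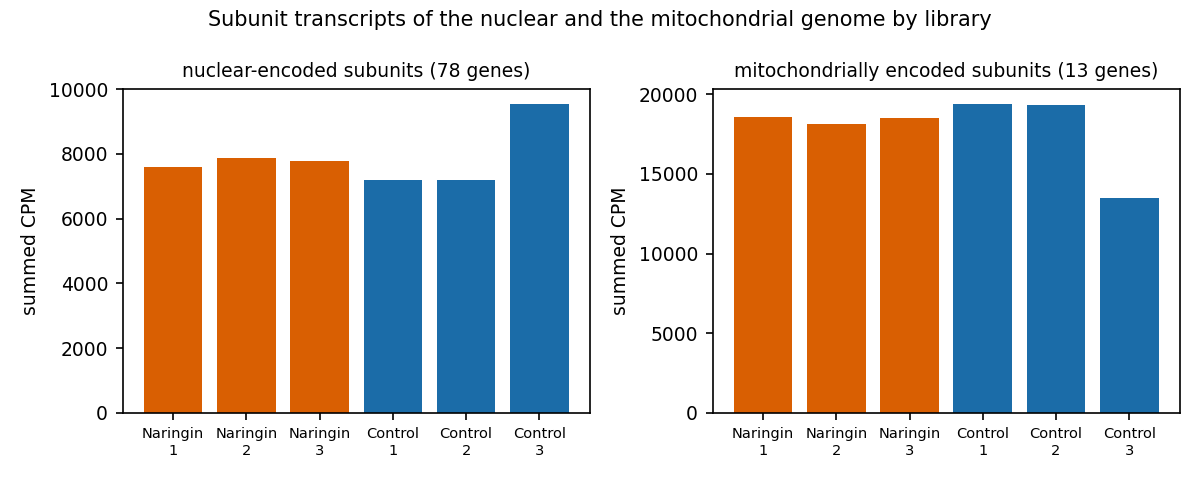
Summed CPM of the 78 nuclear-encoded subunit genes (left) and of the 13 mitochondrially encoded ones (right) in each library, both axes from 0. Control 3 is the highest bar on the left, at 9526 CPM, and the lowest on the right, at 13488 CPM.

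Genes that build, feed and regulate the chain were read beside the subunits. Of the assembly factors, which put the complexes together, 44 of 46 were tested, 25 with a log2 fold above 0 and 19 below, with a median of 0.0059. Without Control 3, 31 were above 0, with a median of 0.07. Tmem126b, a complex I assembly factor, averaged 13.7 ± 1.37 CPM with naringin and 11.0 ± 2.00 CPM in Control, and Tmem70, which serves the ATP synthase, 28.9 ± 1.38 CPM with naringin and 25.2 ± 1.6 CPM in Control (SD, n = 3 each). Atpaf2, a chaperone of the ATP synthase, averaged 25.1 ± 2.50 CPM with naringin and 29.0 ± 2.56 CPM in Control (SD, n = 3 each), and Pet100, of complex IV, had a log2 fold of -0.11.
Of 16 regulators of mitochondrial biogenesis, 11 had a log2 fold above 0 and 5 below, with a median of 0.05 that was -0.05 without Control 3. Tfb1m, a methyltransferase of mitochondrial ribosomal RNA, stood at 8.58, 8.41 and 11.2 CPM in Naringin 1, 2 and 3, against 6.50, 7.66 and 6.95 CPM in Control 1, 2 and 3. Tfam, which packages and transcribes mitochondrial DNA, stood at 72.3, 77.3 and 77.0 CPM in Naringin 1, 2 and 3, against 67.4, 69.9 and 68.7 CPM in Control 1, 2 and 3. In these 2 of the 16 genes, which were named for their small p, the Naringin values lay wholly above those of Control, as in 3.36% of all genes. Neither passed the test: the log2 folds were 0.36 for Tfb1m (limma adjusted p = 1) and 0.14 for Tfam (limma adjusted p = 1). Polg2, the accessory subunit of the mitochondrial DNA polymerase, had a log2 fold of -0.24, and Polrmt, the mitochondrial RNA polymerase, of -0.06.
Of 14 citric acid cycle genes, 10 had a log2 fold above 0 and 4 below, with a median of 0.05. Without Control 3, 13 were above 0, with a median of 0.11. Dld, which serves several dehydrogenases of the cycle, had 0.15, Idh3a, of isocitrate dehydrogenase, 0.13, Suclg1, of succinyl-CoA ligase, -0.09, and Ogdh, of oxoglutarate dehydrogenase, -0.05. Of 7 tested carriers and porins, 5 were above 0 and 2 below (7 above 0 without Control 3), with the porins Vdac1 and Vdac2 at a log2 fold of 0.09 each, the ADP/ATP carrier Slc25a4 at -0.04 and Ucp2, the uncoupling protein family member of immune cells, at -0.09. Of 11 supercomplex and cristae factors, 7 were above 0 and 4 below, and 9 were above 0 without Control 3. Cycs, the electron carrier cytochrome c itself, averaged 61.2 ± 1.87 CPM with naringin and 55.2 ± 7.94 CPM in Control (SD, n = 3 each), a log2 fold of 0.16. No gene of these lists was called by limma after adjustment, against 0% of all genes.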

How the data were processed

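RNA sequencing of 3 Naringin and 3 Control lymph node samples was analysed. The deposited table gives CPM per gene, which the authors obtained by dividing reads by the library total, since each column summed to 1000000. Per the submitters' processing notes, the build was mm39 and the tools were STAR 2.7.9a, Trimmomatic 0.39, edgeR 3.40.0 and featureCounts (Subread 1.6.0). The sources used here name no annotation or strand setting, and reads of overlapping genes cannot be told apart. Columns were tied to samples by the number in each title. CPM is a share, so a shift of abundant genes moves all others. All values above 0 were whole reads within 0.01 of a read, with 1 read worth 0.0668 to 0.0765 CPM.

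Of 28727 genes with a read, the 14873 with a mean of at least 1 CPM were tested as log2(CPM + 1), which understates folds of low genes, with limma 3.58.1 in R 4.3.3 (mean-variance trend, robust, 2-sided, Benjamini-Hochberg, threshold 0.05). SE are moderated, and SD are over 3 libraries. Alternatives were other pseudocounts, filters, scalings, a length correction, library weights, a replicate block, each library left out, and edgeR 4.0.16 and DESeq2 1.42.0 on the recovered reads. Corrections combined with leaving out Control 3 were chosen after seeing the data. The fits were tested on simulated data. GENCODE M21 gave an exon length for 95.1% of tested genes and all 78 subunits. Members and lists were chosen with earlier results of these data known. Named genes were every complex II and III gene, in each other complex the 2 smallest p in each direction and the 3 highest means, the isoform genes, and in other lists the 2 smallest p in each direction; 1 gene that the rule takes is not reported here. COX1, CYTB, ND5 and the genes named by their position in Control 3 or without it were chosen after their values were seen.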

Additional observations from a re-analysis of the deposited data

How the results depend on the processing

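Without Control 3, the direction of the median subunit fold turned in every complex but complex II. Leaving out each library in turn, the median log2 fold of all subunits ran from -0.13 to 0.10, of complex I from -0.13 to 0.09, of complex II from 0.07 to 0.19, of complex III from -0.12 to 0.05, of complex IV from -0.15 to 0.11 and of the ATP synthase from -0.13 to 0.12, and the difference of summed CPM from -7.34% to 7.77%; the highest value was without Control 3 each time. Without any 1 library, 0 subunits were called, and 0 to 1 of all genes. With Control 3 left out, 1 gene was called also with TMM scaling and with the length correction. DESeq2 called 3 genes and 0 subunits. Library weights, from a fit that stopped before converging, gave Control 3 a weight of 0.122 and Naringin 2 a weight of 8.34. They called 1367 of all 14873 genes (560 higher and 807 lower) and 3 of the 78 subunits, which is a smaller share. These 3 were Sdhd (log2 fold 0.31) and Ndufs8 (0.30), higher, and Cox6a2 (-0.66), lower, with limma adjusted p from 0.0251 to 0.0487. The subunit median with these weights was 0.12.

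With all libraries, the subunit median stayed below 0 under each scaling, from -0.09 (upper quartile) to -0.03 (length correction), while 10 to 28 of the 78 genes were above 0. Deviations of same-numbered samples from their group means correlated at r = -0.26, -0.02 and -0.27 over all genes. For differently numbered samples r ran from -0.13 to 0.31. With so few libraries in each group, and Control 3 apart from the others, these values cannot decide whether the numbers pair samples. With the replicate block 0 genes were called and the subunit median was -0.05. Over the named genes and other lists, 932 values moved by less than the spread between libraries, 10 moved by more and 2 became calls. Cox6a2 and Cox6b2, at 2.08 to 4.90 CPM in a library, rest on the fewest reads.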

Other observations

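Other large gene families took a position close to that of the respiratory chain in Control 3. Of 93 tested genes with cytosolic ribosomal protein symbols, a rule that also takes 10 Rps6k kinase genes, 82 were highest in Control 3. Of all genes tested, 24% were. Their share of reads was 8.78%, 9.72% and 10.2% in Naringin 1, 2 and 3, against 9.32%, 8.94% and 12.7% in Control 1, 2 and 3. Of 78 mitochondrial ribosomal protein genes, 62 were highest in Control 3, and of 38 proteasome genes, 32. The median log2 fold with naringin was -0.09, -0.02 and -0.00018 in these families with all libraries, and 0.08, 0.12 and 0.13 without Control 3. With all libraries, limma called 0 genes of these families, and 0 had an unadjusted p under 0.05, against 1.43% of all genes. The tools edgeR and DESeq2 also called 0 of them. Without Control 3, limma called 0 of them. At an unadjusted p under 0.05, 1 cytosolic ribosomal, 3 mitochondrial ribosomal and 5 proteasome genes were then higher with naringin, against 2.68% of all genes. Only 1 cytosolic ribosomal gene was lower, against 6.68% of all genes. The reason for the position of Control 3 was not tested.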
